A study of Mus musculus with 6 samples.

Results

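Trimethylation of histone H3 lysine 4 (H3K4me3) was mapped in γδ T cell precursors with high or low activity of a Sox13 reporter, and the position and extent of the mark were compared site by site. The lists held 19924 peaks in the Sox13hi and 17954 in the Sox13lo population on chromosomes 1 to 19, 37878 of the 74959 peaks in the 5 lists of the series. Peaks of the 2 lists were paired where each was the other's largest overlap, of at least 1 bp, which gave 13642 pairs. Each pair was described by the rank of its score within each list, its width, and the offset of its edges.

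Both populations were sorted from the thymus of C57BL/6 mice of the genotype TCRbeta KO.Sox13 ECFP KI/+, so all cells lacked TCRβ and carried 1 Sox13 allele with a cyan fluorescent reporter. They were CD24-positive γδ thymocytes, with high CFP (Sox13hi) or with low or no CFP (Sox13lo). Each chromatin immunoprecipitation for a histone mark used 250000 cells, fixed with 1% formaldehyde, and there was 1 library per population. The sources used here state neither the number of animals pooled nor their age. The series asked where SOX13 and TCF1 sit on chromatin, with the histone marks mapped alongside.

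H3K4me3 is written by SET1 and MLL methyltransferase complexes around the start sites of active genes and of genes held ready for activation, mostly at CpG-rich promoters. The width of an H3K4me3 domain varies between genes, and wide domains have been linked to genes that define a cell's identity. Where H3K4me3 meets H3K27me3, the mark of Polycomb repressive complex 2, a promoter is called bivalent. SOX13 is an HMG-box transcription factor of γδ T cells, related in its DNA-binding domain to TCF1 and LEF1.

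Peak scores are the authors' own values, and the sources used here do not define them. They were used as percentile ranks, in which 100 is the highest score of a list. Because the Sox13hi list is longer, a second rank was computed among the 13642 paired peaks alone, so that both populations are ranked over the same number. Score and width followed each other closely, with Spearman's rho across peaks of 0.934 in Sox13hi and 0.931 in Sox13lo. Rank shift and breadth shift were both read from the same 2 libraries. Read depth is unknown. Each population had 1 library, so differences could not be checked against replicates and carry no p-value. Intervals are 95% exact binomial intervals, which treat sites as independent and cover counting error only. Positions are in mm9, with starts counted from 1 and ends as deposited, and widths include the last base. Genes at the sites were not analysed here, so the labelled cell type was not checked against its markers.

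Pairs accounted for 68.5% of the Sox13hi and 76.0% of the Sox13lo list. A further 195 Sox13hi and 369 Sox13lo peaks touched a peak of the other list without being its best partner, and 6087 and 3943 touched none. Paired peaks had a median width of 1000 bp in both populations. Peaks without overlap had median widths of 350 bp in Sox13hi and 300 bp in Sox13lo, at median percentiles of 16.4 and 12.9. Of these, 520 Sox13hi peaks (8.54%, interval 7.85 to 9.27%) and 564 Sox13lo peaks (14.3%, 13.2 to 15.4%) lay within 1 kb of a peak of the other list. At the limit of the pairing rule, 25 pairs shared a single 50 bp step. Their median widths were 350 bp in Sox13hi and 300 bp in Sox13lo, at median percentiles of 26.6 and 19.4. Just outside it, 47 Sox13hi and 49 Sox13lo peaks without overlap had a peak of the other list at most 50 bp away. Their median percentiles were 23.2 and 19.04.

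Sites kept their order between the populations. Across the 13642 pairs the score percentiles of Sox13hi and Sox13lo had a Spearman's rho of 0.931, and the widths one of 0.853. The points share the libraries and were chosen for being called in both. Differences were smallest at the ends of the list, where the mean of 2 ranks leaves little room for one. Among pairs in the highest decile of mean paired rank, the median absolute difference in paired rank was 1.57 points, against 7.47 points in decile 6 and 3.94 points in decile 1.

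Large rank differences were few, and how far they leaned toward Sox13hi depended on how rank was counted. On full-list percentiles, 683 pairs stood at least 20 points higher in Sox13hi, which is 5.01% of all pairs tested. In Sox13lo 127 pairs did, 0.931%. The median shift was 2.60 points toward Sox13hi, with 5th and 95th percentiles of -9.94 and 20.01 points. On ranks among paired peaks the 2 counts were 485 (3.56%) and 402 (2.95%), and the median shift was -0.25 points. With both lists limited to equal length the counts were 373 and 298. Ranks among paired peaks sum to the same total in both populations. This makes the mean ranks equal by construction, but does not fix the counts of large shifts. Where the asymmetry of the full-list ranks came from was not tested. Of the 683 pairs, 386 were also 20 points or more higher in Sox13hi on paired rank, and 105 of the 127 were on the Sox13lo side.

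**Figure D1:**
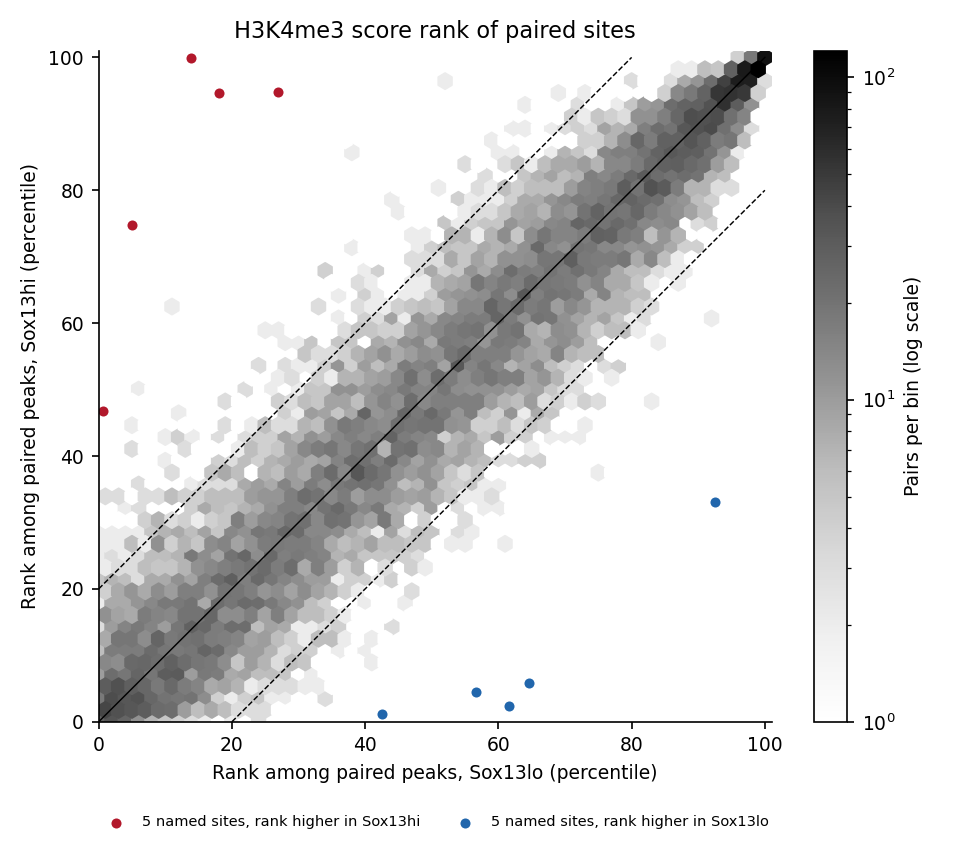
Rank of the H3K4me3 score among the 13642 paired peaks in Sox13lo (x axis, percentile) and Sox13hi (y axis, percentile), with grey bins coloured by the number of pairs on a log scale, the solid line at equal rank and dashed lines 20 points away. Pairs crowd the diagonal and narrow toward the top, 485 lie above the upper and 402 below the lower dashed line, and coloured points are the 10 sites with the largest full-list shifts described in the text.

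The 5 largest shifts toward Sox13hi, among one-to-one pairs with a peak at or above the 50th percentile of its list, were not all alike. The site on chromosome 17, 13498451 to 13498999 in Sox13hi, stood at percentile 99.9 in Sox13hi and 31.9 in Sox13lo, with widths of 550 and 200 bp. The site on chromosome 4, 20118701 to 20119149, stood at 96.4 and 36.1, with widths of 450 and 200 bp. Both were thus narrow peaks for their Sox13hi rank, since the median paired peak was 1000 bp wide. On chromosome 6, 41071301 to 41072199, the percentiles were 96.4 and 43.9 at nearly equal widths of 900 and 850 bp. That site shifted in rank and hardly in breadth, and it held a SOX13 peak and an H3K27me3 peak in both populations, so all 5 lists had a peak there. The input library was not used here, so signal without an antibody at these sites was not analysed.

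The remaining sites were broad in Sox13hi and small in Sox13lo. On chromosome 16, 23269101 to 23270899, the percentiles were 82.7 in Sox13hi and 20.1 in Sox13lo, and the widths 1800 and 450 bp. On chromosome 6, 134919701 to 134920949, they were 63.4 and 5.03, and the widths 1250 and 150 bp. Of the 5 sites, 4 overlapped a SOX13 peak and the chromosome 16 site did not, and 3 of the 5 sites in the opposite direction did too. These sites were picked as extremes. The share was 9.74% of all pairs, 12.4% of the 683 pairs higher in Sox13hi and 15.0% of the 127 higher in Sox13lo. On ranks among paired peaks the 5 shifts were 86.0, 76.7 and 67.9 points at the first 3 sites, in the order given, and 69.7 and 46.1 points at the last 2.

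In the opposite direction, each of the 5 sites was also wider in Sox13lo. The site on chromosome 15, 102060951 to 102062549 in Sox13lo, stood at percentile 18.9 in Sox13hi and 70.8 in Sox13lo, with widths of 400 and 1600 bp. On chromosome 3, 145764101 to 145764849, the percentiles were 28.5 and 73.0 and the widths 150 and 750 bp. On chromosome 8, 10190101 to 10190949, they were 12.8 and 56.2, with widths of 100 and 850 bp. These 3 sites held a SOX13 peak and no H3K27me3 peak in either population. On chromosome 4, 149073901 to 149075699, the percentiles were 25.5 and 67.1 and the widths 550 and 1800 bp. The site on chromosome 7, 132746801 to 132749849, stood at 53.9 and 94.3, with widths of 750 and 3050 bp. It began at the same base in both populations, and the offset of its higher edge, Sox13hi beyond Sox13lo, was -2300 bp. On ranks among paired peaks the 5 shifts lay between -59.4 and -41.4 points.

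**Figure D2:**
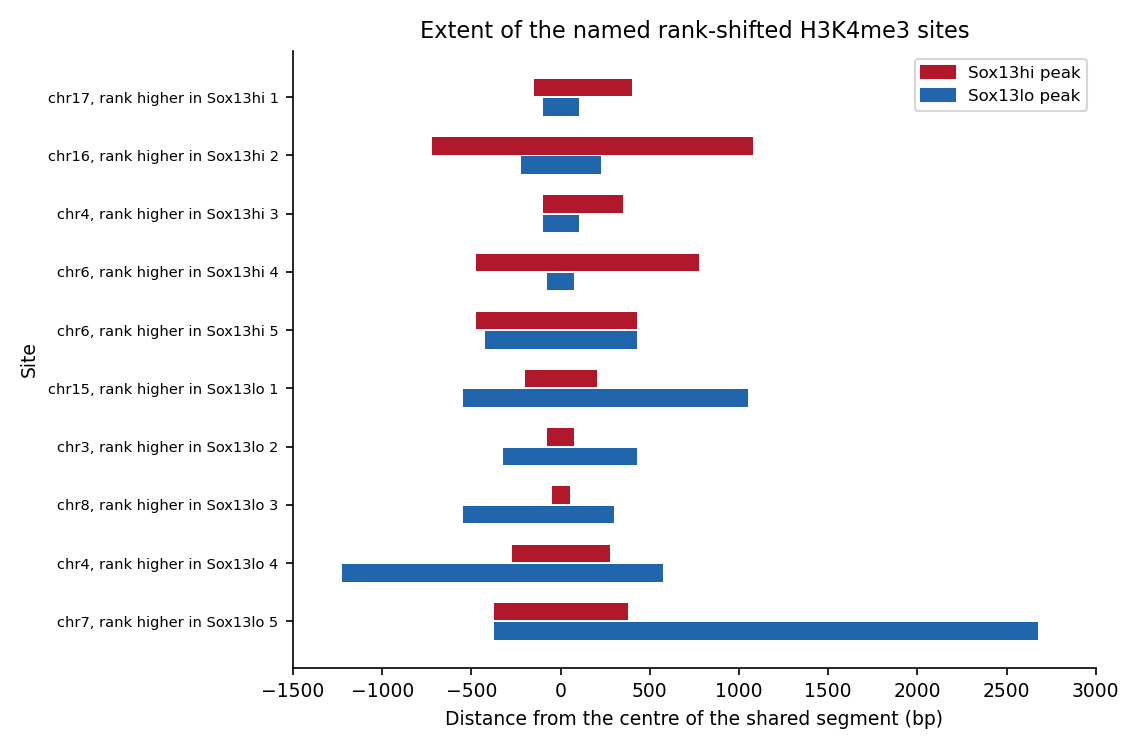
Extent of the Sox13hi (red) and Sox13lo (blue) peak at the 10 sites with the largest full-list rank shifts, drawn to scale as distance in bp from the centre of the segment both peaks share (x axis), 1 site per row (y axis, with its chromosome). The wider peak belongs to the population with the higher rank at all 10 sites, at the fifth site by 1 grid step (chromosome 6, 900 against 850 bp) and at the last by the most (chromosome 7, 750 against 3050 bp).

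Breadth differed by little at most sites. The median difference was 0 bp, and the 5th and 95th percentiles were -350 and 450 bp, Sox13hi minus Sox13lo. The Sox13hi peak was wider in 6567 pairs (48.1%, 47.3 to 49.0%), the Sox13lo peak in 5144 (37.7%, 36.9 to 38.5%), and 1931 pairs (14.2%) had equal widths on the 50 bp grid. A difference of 2-fold or more was seen in 555 pairs wider in Sox13hi, 4.07% of all pairs, and in 170 wider in Sox13lo, 1.25%. Median widths in the first class were 900 bp in Sox13hi and 350 bp in Sox13lo, and in the second 450 and 1100 bp.

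The excess of sites wider in Sox13hi was largest at the bottom of the lists. In decile 1 of mean paired rank, 58.5% (55.8 to 61.1%) of pairs were wider in Sox13hi and 30.9% (28.5 to 33.4%) in Sox13lo, and 205 and 37 pairs differed by 2-fold or more. In decile 10 the shares were 42.5% (39.9 to 45.2%) and 41.1% (38.5 to 43.8%), with 2 and 2 pairs. When the lists were limited to their upper 50% of scores, 42 and 29 pairs differed by 2-fold or more. At matched rank the order was kept. Among the 2983 pairs whose paired ranks differed by at most 2 points, the Sox13hi peak was wider in 51.2% (49.3 to 53.0%) and the Sox13lo peak in 30.6% (29.0 to 32.3%), with a median difference of 50 bp, 1 step of the grid. Among the 6278 pairs within 5 points the shares were 49.6% (48.4 to 50.8%) and 31.8% (30.6 to 32.9%), with a median difference of 0 bp.

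**Figure D3:**
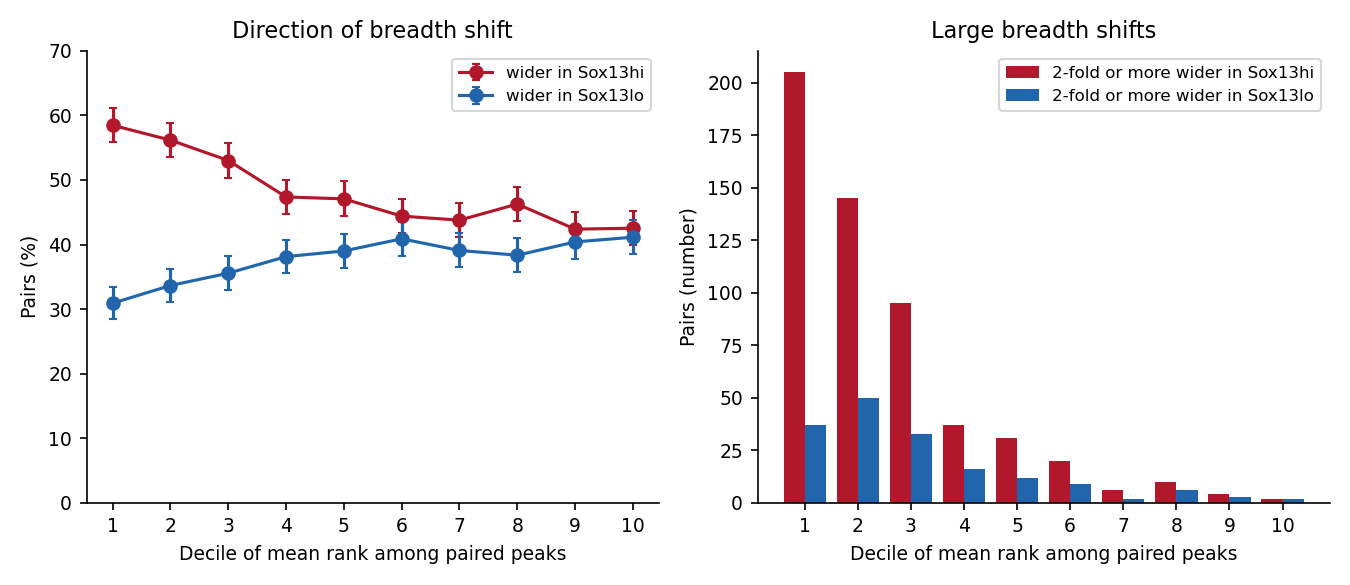
Left, share of pairs wider in Sox13hi (red) or Sox13lo (blue), in percent with 95% exact binomial intervals, by decile of mean rank among paired peaks (x axis, 10 highest). Right, number of pairs with a breadth difference of 2-fold or more in the same deciles; the Sox13hi excess is largest in decile 1 (205 against 37 pairs), and decile 10 has 2 against 2.

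At the 5 largest breadth ratios toward Sox13hi, the Sox13lo peak was only 100 to 200 bp wide. The site on chromosome 11, 97500851 to 97501899, was 1050 bp wide in Sox13hi and 100 bp in Sox13lo. This ratio depended on whether nearby peaks were joined. With peaks of a list within 1 kb merged, which takes in neighbouring peaks, its log2 ratio was -0.13 in place of 3.39. On chromosome 4, 22414501 to 22415499, the widths were 1000 and 100 bp. On chromosome 10, 80305951 to 80307499, they were 1550 and 200 bp. The chromosome 4 and 10 sites held an H3K27me3 peak in both populations and no SOX13 peak. On chromosome 17, 13743301 to 13745249, the peak was 1950 bp wide in Sox13hi, where it had the highest score of the list, and 200 bp wide in Sox13lo, at percentile 61.3. This site also held a SOX13 peak. The fourth by ratio was the chromosome 6 site at 134919701 described above, 8.33-fold wider in Sox13hi. Toward Sox13lo, 4 of the 5 largest ratios were at sites already named, on chromosomes 8, 3, 7 and 15. Their narrower peaks, in Sox13hi, were 100 to 750 bp wide. The remaining one, on chromosome 10, 126762601 to 126764199, was 400 bp wide in Sox13hi and 1600 bp in Sox13lo.

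The broadest sites were picked by their width in both populations together, which favours similar widths. The 5 pairs with the largest summed width measured 4700 to 5450 bp in Sox13hi and 4950 to 5500 bp in Sox13lo. The broadest, on chromosome 17, 36002451 to 36007899, was 5450 bp wide in Sox13hi and 5350 bp in Sox13lo, at percentiles 98.2 and 99.5. The next, also on chromosome 17, 34254751 to 34260099, was 5350 and 5400 bp wide. The remaining pairs were on chromosome 10, 79610551 to 79615549, and chromosome 11, 3188751 to 3193899 and 52092351 to 52097049, and none of the 5 held H3K27me3. Over 2 kb in both populations were 445 pairs, with a median rank shift of 0.03 points and a range of -10.7 to 21.8 points. Another 225 pairs were over 2 kb in Sox13hi only and 190 in Sox13lo only, with median width differences of 550 and -500 bp. Over 3000 bp were 45 pairs in both, 37 in Sox13hi only and 27 in Sox13lo only, with median differences of 950 and -800 bp in the last 2 classes.

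Rank and breadth shifted together. Across the 13642 pairs, Spearman's rho between paired rank shift and log2 breadth ratio was 0.66, with both values read from the same 2 libraries. Score and width already followed each other within each list, with rho of 0.934 and 0.931. The 2 shifts are therefore not independent measures, and their agreement in direction is no separate result. Of the 485 pairs at least 20 points higher in Sox13hi on paired rank, 471 were wider in Sox13hi, 6 were narrower and 8 were equal. Of the 402 on the Sox13lo side, 386 were wider in Sox13lo, 8 narrower and 8 equal. Rank could differ without breadth. Among one-to-one pairs, 36 of 339 shifted toward Sox13hi and 29 of 322 shifted toward Sox13lo were wider there by at most 50 bp.

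Edges were compared next. Both edges lay within 50 bp of each other in 4708 pairs (34.5%, 33.7 to 35.3%) and within 200 bp in 10684 (78.3%, 77.6 to 79.0%), and 812 pairs had the same start and end. The commonest pattern was an offset, with 1 edge further out in each population, in 4032 pairs (29.6%). Both edges were further out in Sox13hi in 2464 pairs (18.1%) and in Sox13lo in 1588 (11.6%). With 1 edge equal, the other was further out in Sox13hi in 2599 pairs (19.1%) and in Sox13lo in 2147 (15.7%).

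Extensions of 500 bp or more were found in 580 pairs in Sox13hi, 4.25% of all pairs, and in 349 in Sox13lo, 2.56%. They were seldom on both sides: 16 of the 580 and 2 of the 349 pairs had both edges further out by that much. Lower and higher edges were extended about equally often, in 288 and 308 pairs in Sox13hi and in 168 and 183 in Sox13lo. In 262 of the 580 (45.2%, 41.1 to 49.3%) and 175 of the 349 (50.1%, 44.8 to 55.5%), the opposite edge matched to within 50 bp. Over all pairs, 57.3% of lower and 57.0% of higher edges matched that closely. Extended sites were often those that 1 library split. Of the 580 pairs 290 involved a peak that overlapped a further peak of the other list, and of the 349 pairs 166 did. Of all 13642 pairs 552 did. The pairing rule keeps 1 partner only, so a peak that spans several tends to reach beyond it. Where a Sox13hi peak spanned several, 351 of 356 pairs were wider in Sox13hi. Where a Sox13lo peak did, 184 of 188 were wider in Sox13lo. Among one-to-one pairs 290 and 183 extensions remained, and of the 92 and 57 pairs with an extension of 1000 bp or more, 12 and 13 were one-to-one.

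**Figure D4:**
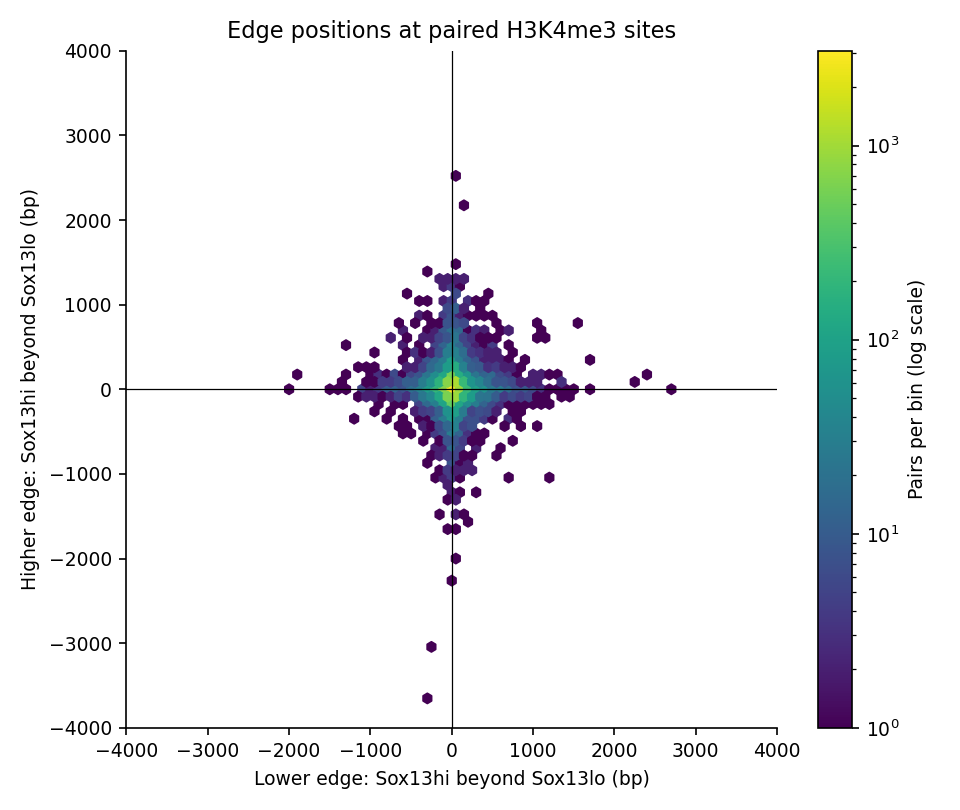
Offset of the lower (x axis) and higher (y axis) edge of each of the 13642 pairs, in bp by which the Sox13hi peak reaches beyond the Sox13lo peak, with negative values where the Sox13lo peak reaches further; bins are coloured by the number of pairs on a log scale. Offsets of 500 bp or more on both edges are few (16 pairs in Sox13hi and 2 in Sox13lo), and single offsets reach 2700 bp in Sox13hi and 3700 bp in Sox13lo.

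Splitting ran in both directions. A Sox13hi peak spanned several Sox13lo peaks in 367 cases (1.84% of the list) and a Sox13lo peak several Sox13hi peaks in 198 (1.10%). The gaps bridged had a median of 150 bp in both directions and reached 1000 and 1250 bp. With peaks within 1 kb merged in both lists, 541 pairs were 2-fold or more wider in Sox13hi and 218 in Sox13lo, and 636 and 512 had extensions of 500 bp or more.

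H3K27me3 lay more often at sites whose H3K4me3 ranked higher in Sox13hi. The segment common to both H3K4me3 peaks was set against the other lists. Among the 683 pairs 20 points or more higher in Sox13hi on full-list rank, 225 (32.9%, 29.4 to 36.6%) held an H3K27me3 peak of Sox13hi cells, and 225 held one of Sox13lo cells. Among the 12832 pairs within 20 points, the shares were 15.4% (14.8 to 16.0%) and 13.9% (13.3 to 14.6%). Among the 127 pairs higher in Sox13lo they were 22.0% (15.2 to 30.3%) and 16.5% (10.5 to 24.2%). The common segment was shorter in shifted pairs, at a median of 400 bp in the first class against 950 bp in pairs within 20 points. With segments of at most 500 bp alone, the H3K27me3 shares were 30.02% (25.7 to 34.6%) and 31.0% (26.6 to 35.6%) at the 423 pairs higher in Sox13hi. They were 20.8% (19.05 to 22.7%) and 21.4% (19.6 to 23.3%) at the 1929 pairs within 20 points. With the lists limited to their upper 50% of scores, pairs higher in Sox13hi held H3K27me3 of the 2 populations in 21.1% and 19.98%. Pairs higher in Sox13lo held it in 15.0% and 10.3%. The shares over all pairs of these shorter lists are not given here, and the full-list shares are not their background. By breadth in the full lists, the 555 pairs 2-fold or more wider in Sox13hi held the 2 marks in 32.4% (28.55 to 36.5%) and 31.9% (28.0 to 35.9%). The 170 pairs wider in Sox13lo by that much had 25.3% (18.95 to 32.5%) and 17.6% (12.2 to 24.2%). Pairs within 2-fold had 15.5% (14.9 to 16.1%) and 14.2% (13.6 to 14.8%). The part of segment length and list position in these shares was not tested beyond these values.

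The comparison was repeated on ranks among paired peaks and away from the ends of the list. In deciles 2 to 7 of mean paired rank, a window chosen after the values were seen, 427 pairs stood 20 points or more higher in Sox13hi on paired rank. Of these, 37.9% (33.3 to 42.7%) held H3K27me3 of Sox13hi and 36.1% (31.5 to 40.8%) that of Sox13lo. In the 7388 pairs within 20 points the shares were 19.5% (18.6 to 20.5%) and 17.8% (17.0 to 18.7%). In the 370 pairs higher in Sox13lo they were 18.6% (14.8 to 23.0%) and 14.6% (11.2 to 18.6%). The shares for the 2 H3K27me3 lists were close to each other over all pairs as well (16.3% and 14.9%), while the 2 H3K27me3 lists hold 14483 and 7268 peaks.

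**Figure D5:**
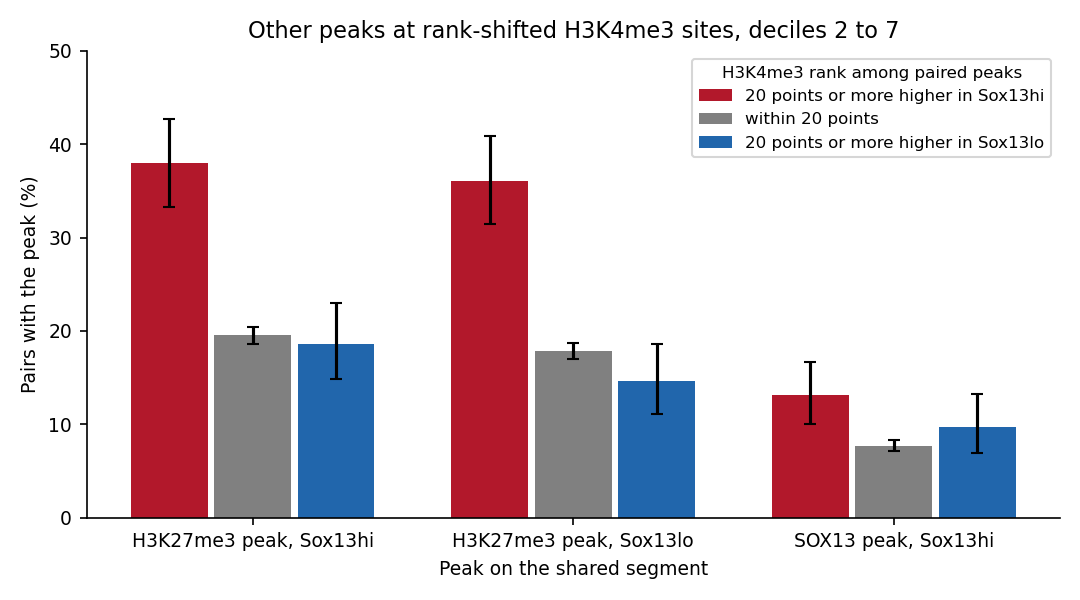
Share of pairs (y axis, percent, with 95% exact binomial intervals) whose common segment overlaps an H3K27me3 peak of Sox13hi, an H3K27me3 peak of Sox13lo or a SOX13 peak (x axis), in deciles 2 to 7 of mean paired rank. Red, 427 pairs at least 20 points higher in Sox13hi on paired rank; grey, 7388 pairs within 20 points; blue, 370 pairs at least 20 points higher in Sox13lo. The red H3K27me3 bars stand at 37.9% and 36.1%, above the grey bars at 19.5% and 17.8%.

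Seen from the H3K27me3 side, the 1656 pairs with H3K27me3 in both populations were wider in Sox13hi in 60.6% (58.2 to 62.9%) and in Sox13lo in 30.1% (27.9 to 32.4%). The 11037 pairs without H3K27me3 had 45.6% (44.7 to 46.5%) and 39.3% (38.4 to 40.3%). The 2 classes differed in list position, with a median of mean paired rank of 36.6 and 54.4. Over all pairs the share wider in Sox13hi was higher at low ranks. The median log2 breadth ratio was 0.29 with H3K27me3 in both and 0.17 without it in decile 1, and 0.06 and 0 in decile 10. The part of list position in these shares was not tested. Pairs with H3K27me3 in both had a median paired rank shift of 2.21 points, and those without it -0.50 points. In each decile of mean paired rank from 2 to 9 the median shift was above 0 in pairs with H3K27me3 in both, from 1.08 to 5.27 points, and below 0 in pairs without it, from -1.36 to -0.29 points. Deciles 1 and 10 had the same signs at smaller values with H3K27me3 in both, 0.48 and 0.24 points. Without it their medians were -0.43 and -0.03 points. Paired ranks sum to the same total in each population, so a shift up in 1 class is balanced by the others.

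Sites with H3K27me3 in 1 population only were fewer. The 379 pairs with H3K27me3 in Sox13lo only were wider in Sox13hi in 62.3% (57.2 to 67.2%) and had a median paired rank shift of 1.63 points. The 570 pairs with it in Sox13hi only were wider in Sox13hi in 51.9% (47.7 to 56.1%), with a median shift of -0.29 points. The median of mean paired rank was 21.7 with H3K27me3 in Sox13lo only and 35.1 with it in Sox13hi only. The shares wider in Sox13hi were not separated from this difference in list position. Deciles 4 and 5 showed the widest spread between these classes. Median shifts there were 5.84 points (n = 43) and 6.60 points (n = 30) with H3K27me3 in Sox13lo only, and -4.37 (n = 54) and -2.98 (n = 49) points with it in Sox13hi only. These deciles were picked after their values were seen. In decile 1 the order was the opposite, with -0.44 points (n = 101) for Sox13lo only and 0.45 points (n = 83) for Sox13hi only, and in deciles 3, 7 and 8 both medians were positive.

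SOX13 peaks, mapped in Sox13hi cells only, were less tied to the direction of the rank shift. They lay on the common segment of 1329 of the 13642 pairs (9.74%, 9.25 to 10.3%). On full-list rank the shares were 12.4% (10.1 to 15.2%) in pairs higher in Sox13hi, 15.0% (9.25 to 22.4%) in pairs higher in Sox13lo and 9.55% (9.04 to 10.1%) within 20 points. In deciles 2 to 7 of paired rank they were 13.1% (10.1 to 16.7%), 9.73% (6.91 to 13.2%) and 7.73% (7.13 to 8.36%). The intervals of the 2 shifted classes overlapped on both ranks, and their order turned between them. By decile, SOX13 was most frequent at the top of the list, at 18.3% of decile 10, where ranks hardly differed, and least frequent in decile 5, at 6.31%.

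The bases by which a peak was extended differed more between the populations. Of 596 extensions of 500 bp or more in Sox13hi, 43 (7.21%, 5.27 to 9.60%) overlapped a SOX13 peak, against 9 of 351 in Sox13lo (2.56%, 1.18 to 4.81%). Median extensions were 650 and 700 bp. Neither share was above that of the common segments of all pairs, at 9.74% (9.25 to 10.3%) with a median length of 900 bp. At 250 bp or more the shares were 6.43% (5.38 to 7.61%) of 1944 and 2.94% (2.09 to 4.01%) of 1292. At 1000 bp or more they were 7.61% (3.11 to 15.1%) of 92 and 3.51% (0.43 to 12.1%) of 57, with overlapping intervals. SOX13 and the wider H3K4me3 peak come from the same Sox13hi cells in the first case and from different cells in the second. H3K27me3 of Sox13hi lay on 29.2% (25.6 to 33.0%) of the Sox13hi and 21.1% (16.9 to 25.7%) of the Sox13lo extensions.

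Sites with a peak in all 5 lists numbered 230 (1.69%, 1.48 to 1.92%), counted over the full extent of either H3K4me3 peak. They made up 4.54% (2.86 to 6.79%) of pairs higher in Sox13hi and 1.99% (0.86 to 3.88%) of pairs higher in Sox13lo on paired rank. On full-list rank the shares were 4.10% (2.74 to 5.87%) and 3.94% (1.29 to 8.95%). Their part in the shares above was not tested.

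Shifts were spread over the genome. The median full-list shift by chromosome ranged from 1.56 points on chromosome 15 to 3.79 on chromosome 6, and on paired rank from -0.97 on chromosome 8 to 0.66 on chromosome 3. The share of pairs wider in Sox13hi ranged from 45.7% on chromosome 7 to 53.3% on chromosome 13. Neighbouring sites shifted almost independently. Spearman's rho of the paired rank shift between adjacent pairs was 0.07 for the 539 neighbours less than 1 kb apart, 0.08 for 1634 at 1 to 10 kb and 0.02 for 7169 at 10 to 100 kb.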

How the data were processed

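ChIP-seq peak lists of 5 libraries were used, 1 per group, of the 6 libraries listed. Each file deposited by the authors is a BED list in build mm9, per the submitters' processing notes, with a score per peak. For the aligner, peak caller, threshold and control, nothing is given in the sources used here. Per the labels' protocols, DNA was amplified for 17 cycles and fragments of 300 to 500 bp were taken. All starts lie on a 50 bp grid and all ends 1 bp short of it. The input library was not used here.

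Chromosomes 1 to 19 were kept. Ties in score took the average rank. Thresholds were 20 percentile points, 2-fold in width and 500 bp at an edge. Sites named are, among one-to-one pairs with a peak at or above the 50th percentile, the 5 largest rank shifts and breadth ratios in each direction, and the 5 broadest pairs. Members, thresholds and lists were chosen with earlier results of these data known. Alternatives were a 50% overlap, equal list length, the top 50% by score, merging within 1 kb, one-to-one pairs, ranks among pairs or of width, and other thresholds. Gene lists and promoter sequences were not used, because their positions are on GRCm38 and no positions were converted. The code recovered 200 of 200 edge moves made in a simulated copy of the Sox13hi list of 19924 peaks, and its 14216 overlaps equalled those of bedtools 2.31.1. Python 3.11.15, NumPy 2.4.6, pandas 2.3.3, SciPy 1.17.1 and matplotlib 3.10.9 were used.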

Additional observations from a re-analysis of the deposited data

Results flagged for a closer look

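Peaks on the sex chromosomes were outside the comparisons and are given here as values. Chromosome X held 431 H3K4me3 peaks in Sox13hi and 423 in Sox13lo, which formed 335 pairs, and chromosome Y held 89 and 94 peaks in 61 pairs. With all chromosomes ranked together, X-linked pairs had a median rank shift of 5.55 points, and 57.9% (52.4 to 63.3%) were wider in Sox13hi against 30.4% (25.6 to 35.7%) in Sox13lo. Y-linked pairs had a median shift of -0.94 points, and 32.8% (21.3 to 46.0%) were wider in Sox13hi against 50.8% (37.7 to 63.9%) in Sox13lo.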

How the results depend on the processing

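No paired analysis was possible because a population is represented by 1 library only, and no replicate could be left out. Depth is unknown, so a difference in depth or calling threshold between the libraries cannot be told apart from one between the populations. Values give Sox13hi first unless stated. At equal list length 373 and 298 pairs shifted by 20 points or more, and the median rank shift was -0.26. On ranks among paired peaks 402 pairs stood higher in Sox13lo and the median was -0.25. At 10 points the counts were 2746 and 676, and at 30 points 188 and 23. In Sox13lo the count fell to 82 when peaks within 1 kb were merged, and to 83 in one-to-one pairs. Merging also gave a median of 3.33 points and shares of 47.1% and 38.9% wider. One-to-one pairs left 290 and 183 extensions.

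In the top 50% by score 8683 pairs remained, with 976 and 300 shifted by 20 points or more and a median shift of 2.79. Of the 8683 pairs, 43.0% and 40.7% were wider, 42 and 29 were so by 2-fold or more, and 271 and 226 were extended. There H3K27me3 of Sox13hi and of Sox13lo lay on 21.1% and 19.98% of pairs higher in Sox13hi and on 15.0% and 10.3% of pairs higher in Sox13lo. At the 42 pairs 2-fold wider in Sox13hi those shares were 26.2% and 23.8%, and SOX13 was at 21.4%. At the 29 pairs 2-fold wider in Sox13lo they were 31.0% and 17.2%, and SOX13 was at 13.8%. Shares over all pairs of these shorter lists are not given here, so these values stand without a background. By percentile rank of width, 1177 and 398 pairs shifted by 20 points and 63.0% ranked wider in Sox13hi. At 1.5-fold the counts were 1282 and 553. Extensions numbered 1843 and 1254 at 250 bp and 92 and 57 at 1000 bp.

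Counting any base of either peak, pairs higher in Sox13hi held SOX13 in 15.4% and the 2 H3K27me3 marks in 39.1% and 38.8%, and pairs 2-fold wider in Sox13hi in 17.3%, 40.4% and 38.4%. Pairs higher in Sox13lo held them in 15.7%, 23.6% and 19.7%, and pairs 2-fold wider in Sox13lo in 12.9%, 28.2% and 24.1%. Of 131 summary values under an alternative, 84 stayed within their limits, 45 moved beyond them and 2 turned, both medians of rank shift. Stricter thresholds lower a count by construction. Fewer peaks need not lower a count of rank shifts, because ranks were computed anew within the shorter lists. In the top 50% by score these counts were 976 and 300, against 683 and 127 in the full lists. Otherwise the cause of a change was not tested. Alternatives for SOX13 in extensions, the narrow segments and the classes by paired rank were chosen after seeing the data. Among the named sites, merging within 1 kb turned the log2 ratio of the chromosome 11 site to -0.13 and left 1 site, on chromosome 4 at 149073901, without a pair. In the top 50% by score 13 of the 20 sites had no pair.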
